A study of Rattus norvegicus with 6 samples.

Results

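The UGT2B glucuronosyltransferases described here are 4 rat genes, Ugt2b7, Ugt2b15, Ugt2b35 and Ugt2b37. They are 4 of the 15645 gene symbols that could be assigned to the array, and 6 of its 61537 probes other than controls carry one of their RefSeq transcripts. Ugt2b15 and Ugt2b37 have 2 probes each, and Ugt2b7 and Ugt2b35 have 1 each. The genes were selected on the processed signals of these same arrays, for their difference between chlorothalonil and corn oil. Their differences are therefore given as a description, with no test.

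The samples were renal cortex of male Sprague-Dawley rats, obtained at 5 weeks of age, and RNA of each was read on 1 Agilent 1-colour array. The chlorothalonil group was 3 rats dosed over 4 weeks at 500 mg/kg/day with chlorothalonil, a fungicide of the chlorinated nitrile type. The corn oil group was 3 rats given the vehicle alone for the same 4 weeks. The design text calls the samples of a group biological replicates, and their number limits the precision of every value. All 3 chlorothalonil arrays were on 1 slide scanned on 1 day, and all 3 corn oil arrays were on another slide scanned on another day, so slide, scan day and treatment cannot be told apart. The source name of chlorothalonil replicate 3 states another compound, ethylenediamine dihydrochloride, while its other labels state chlorothalonil. It was kept. Values without it are given for the brightest probe of each member and for the number of features called. Where the call of a named gene was lost without it, this is stated. Between 62.1% and 67.8% of probes per array were well above background, and no probe was saturated.

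UDP-glucuronosyltransferases sit in the membrane of the endoplasmic reticulum and join glucuronic acid, taken from UDP-glucuronate, to steroids, bile acids, fatty acids and many drugs. The glucuronides are more soluble in water and leave the cell through export pumps. The UGT1A enzymes come from a single locus whose variable first exons share their later exons, whereas each UGT2B enzyme has a gene of its own in a cluster of close copies. In the kidney glucuronidation takes place mainly in the proximal tubule. The UGT2B copies are alike in sequence, the files hold no probe sequences, and a probe named for one copy may also bind transcripts of another.

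The start of each gene is shown because the 4 members share a stretch there that few other genes hold. The sequences are RefSeq's for assembly GRCr8, all on the plus strand of chromosome 14, and run from 120 bases before the annotated start to 20 bases after it. All 4 members had an entry. Capitals mark the longest run of letters common to the members, 25 bases in length. The windows are chr14:21251415-21251554 for Ugt2b7, chr14:21122746-21122885 for Ugt2b15, chr14:21208321-21208460 for Ugt2b35 and chr14:21172016-21172155 for Ugt2b37.
Ugt2b7: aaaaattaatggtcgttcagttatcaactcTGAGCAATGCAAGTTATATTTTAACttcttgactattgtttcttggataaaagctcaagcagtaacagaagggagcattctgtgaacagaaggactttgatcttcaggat
Ugt2b15: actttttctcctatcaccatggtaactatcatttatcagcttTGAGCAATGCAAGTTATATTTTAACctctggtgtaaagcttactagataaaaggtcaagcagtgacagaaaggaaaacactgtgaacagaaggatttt
Ugt2b35: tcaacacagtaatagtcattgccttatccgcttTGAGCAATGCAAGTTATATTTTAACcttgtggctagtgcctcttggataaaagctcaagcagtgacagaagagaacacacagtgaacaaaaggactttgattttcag
Ugt2b37: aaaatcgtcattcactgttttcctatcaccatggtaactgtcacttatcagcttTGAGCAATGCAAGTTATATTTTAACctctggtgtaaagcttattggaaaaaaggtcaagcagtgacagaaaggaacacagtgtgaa

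The capitals end 65 bases before the annotated start of Ugt2b7, 53 before that of Ugt2b15, 62 before that of Ugt2b35 and 41 before that of Ugt2b37. The run occurs in 7 of the 33469 promoters of the table, on either strand, which is 0.0209% of them. Besides the members these are Ugt2b and Ugt2b7l1, both UGT2B genes, and the unnamed locus LOC134478834. Over their whole 300-base promoters, Ugt2b15 and Ugt2b37 were the most alike pair, with 85.3% of 313 aligned positions identical. The other 5 pairs lay between 61.1% for Ugt2b35 and Ugt2b37 and 70.9% for Ugt2b7 and Ugt2b35.

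The nearest stretch in the 3 UGT2B genes without a level in either group is shown for comparison, with capitals at the letters that differ from the run of the members. Ugt2b holds the run unchanged at chr14:20985375-20985399, Ugt2b10 differs at 7 of 25 letters at chr14:21462764-21462788, and Ugt2b1 differs at 10 at chr14:21378798-21378822. The best match in Ugt2a3, also without a level, differs at 10 letters and is not shown.
Ugt2b: tgagcaatgcaagttatattttaac
Ugt2b10: tgGTGGGtAcaagttataCtttaac
Ugt2b1: GATgGTTtAAaagttatatAttaaT
The core letters of the antioxidant response element, TGACNNNGC, were searched on both strands and occurred in 0 of the 4 member promoters, against 12.1% of all 33469 promoters. These matches describe letters in a short window and locate no site.

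Signals below are scaled unless called processed. A scaled signal is the processed signal of a probe as a multiple of the 75th percentile of its own array. Probes differ in how well they bind, so levels of different probes are not compared. In bulk tissue, fewer cells of a type and less RNA per cell cannot be told apart.

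Ugt2b7 shares its symbol with the human enzyme that conjugates morphine, bile acids and many other drugs. Its probe, for the transcript NM_173323, gave scaled signals of 10.1, 59.5 and 70.6 in chlorothalonil replicates 1 to 3, against 0.692, 2.67 and 0.305 in corn oil replicates 1 to 3. The groups did not overlap, and the lowest chlorothalonil array was 3.77 times the highest corn oil array. On the log2 scale the means were 5.12 ± 1.56 with chlorothalonil and -0.28 ± 1.58 with corn oil (SD, n = 3 each), a difference of 5.40 ± 1.28 (SE), or 42.2-fold. The arrays of one group were far apart here: the signal varied 7.01-fold among chlorothalonil arrays and 8.77-fold among corn oil arrays. The size of the fold rests on single arrays, since it was 78.5 without chlorothalonil replicate 1, 75.9 when corn oil replicate 2 was left out and 25.6 when corn oil replicate 3 was. It was 29.6 without chlorothalonil replicate 3, the sample with the conflicting label.

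Ugt2b15 is named like the human enzyme that inactivates androgens. Its brighter probe, for NM_153314, read 15.2, 11.3 and 12.9 with chlorothalonil, against 0.712, 1.10 and 1.97 with corn oil. The log2 means were 3.70 ± 0.22 with chlorothalonil and 0.21 ± 0.74 with corn oil (SD, n = 3 each), which differ by 3.50 ± 0.44 (SE), or 11.3-fold. The chlorothalonil arrays lay close together, within 1.35-fold, while the corn oil arrays spread over 2.76-fold with replicate 1 lowest and replicate 3 highest. Its dimmer probe read 1.84, 3.54 and 4.15 with chlorothalonil, against 0.0880, 0.280 and 0.188 with corn oil, a log2 difference of 4.17 ± 0.61 (SE), or 18.0-fold. Neither probe overlapped between the groups, and the order of the arrays differed: chlorothalonil replicate 1 was the highest of its group on the brighter probe and the lowest on the dimmer one.

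Ugt2b35 is a rat member of the family whose transcript is NM_001004271. Its scaled signals were 215.7, 167.6 and 182.9 with chlorothalonil, against 13.97, 20.8 and 35.0 with corn oil. Without overlap, the lowest chlorothalonil array stood 4.79 times above the highest corn oil array. The log2 means were 7.55 ± 0.18 with chlorothalonil and 4.44 ± 0.66 with corn oil (SD, n = 3 each), a difference of 3.11 ± 0.40 (SE), or 8.65-fold. As for the brighter Ugt2b15 probe, the chlorothalonil arrays were the tighter group, within 1.29-fold against 2.51-fold for corn oil.

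Ugt2b37, a further rat member, was read by 2 probes for NM_001007264. The brighter one gave 59.5, 45.0 and 49.8 with chlorothalonil, against 4.02, 6.02 and 10.8 with corn oil. Its log2 means of 5.67 ± 0.20 with chlorothalonil and 2.68 ± 0.72 with corn oil (SD, n = 3 each) differed by 3.00 ± 0.43 (SE), or 7.99-fold. The groups stood apart by 4.16-fold at their nearest arrays. The dimmer probe gave 0.212, 0.754 and 0.984 with chlorothalonil, against 0.0255, 0.0676 and 0.0241 with corn oil, where it was well above background on 1 of 3 arrays. It passed the filter on dim probes only through the chlorothalonil group. Its values did not overlap between the groups, but no fold is given, since most of its corn oil values are not well above background.

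**Figure D1:**
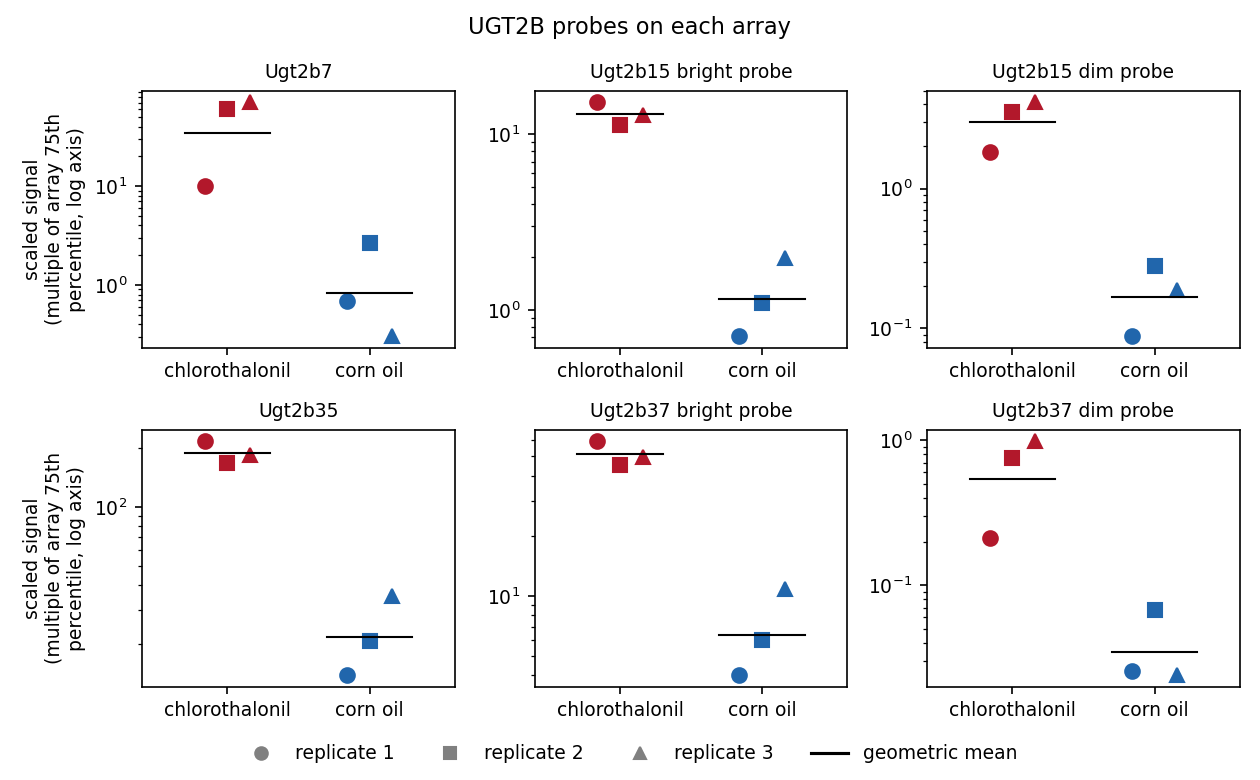
Scaled signal (multiple of the 75th percentile of the array, log axis) of the 6 UGT2B probes, with chlorothalonil left of corn oil in each panel. Each symbol is 1 array and its shape the replicate, the line is the geometric mean, and no panel has overlapping groups. Chlorothalonil replicate 1 (circle) is the highest of its group for Ugt2b35 and the brighter Ugt2b15 and Ugt2b37 probes, and the lowest for the other 3. The dimmer Ugt2b37 probe was well above background on 1 of 3 corn oil arrays.

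All 6 probes had every chlorothalonil array above every corn oil array, which also held for 13.6% of the 29115 features tested across the array. Since the rule used this contrast, nothing is read from that count. Well above background on each of the 6 arrays were 5 of the 6 probes, whose folds ran between 7.99 and 42.2. Without chlorothalonil replicate 3 the folds were 11.3 for the brighter Ugt2b15 probe, 8.77 for Ugt2b35 and 8.09 for the brighter Ugt2b37 probe. With any other single array left out, the fold lay between 8.85 and 14.7 for Ugt2b15, 6.95 and 10.998 for Ugt2b35, and 6.33 and 10.4 for Ugt2b37.

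By which array of each group was highest, the 5 probes well above background on all 6 arrays fell into 2 patterns. This split was seen in the data and not tested. Relative to their corn oil means, Ugt2b35 stood at 3.31, 2.95 and 3.08 on the log2 scale in chlorothalonil replicates 1 to 3 and at -0.63, -0.06 and 0.69 in corn oil replicates 1 to 3. The brighter Ugt2b37 probe stood at 3.22, 2.81 and 2.96 with chlorothalonil and at -0.67, -0.09 and 0.76 with corn oil. The log2 difference of these 2 probes varied with an SD of 0.0745 over the 6 arrays, the smallest of the 10 pairs among the 5 probes, and the brighter Ugt2b15 probe followed both, with SDs of 0.216 and 0.273. In this pattern chlorothalonil replicate 1 and corn oil replicate 3 are the highest of their groups.

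The other pattern held Ugt2b7 and the dimmer probe of Ugt2b15. Relative to its corn oil mean Ugt2b7 stood at 3.61, 6.17 and 6.42 with chlorothalonil and at -0.26, 1.69 and -1.44 with corn oil. The dimmer Ugt2b15 probe stood at 3.46, 4.41 and 4.64 with chlorothalonil and at -0.92, 0.75 and 0.17 with corn oil. Here chlorothalonil replicate 1 was the lowest of its group and corn oil replicate 2 the highest. The 2 probes of Ugt2b15 differed from each other with an SD of 0.782, more than the brighter one differed from Ugt2b35 or from the brighter Ugt2b37 probe. Ugt2b7 differed from the dimmer Ugt2b15 probe with an SD of 1.26 and from Ugt2b35 with an SD of 2.08. The dimmer Ugt2b15 probe differed from Ugt2b35 with an SD of 0.885 and from the brighter Ugt2b37 probe with an SD of 0.945. By this measure it was nearer to the probes of the first pattern than to Ugt2b7. The split therefore rests on the order of the arrays only. Among the chlorothalonil arrays alone, where it was well above background on all 3, the dimmer Ugt2b37 probe was also lowest in replicate 1. The probes of Ugt2b15 thus rank the animals differently, and which transcripts each probe binds was not tested.

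**Figure D2:**
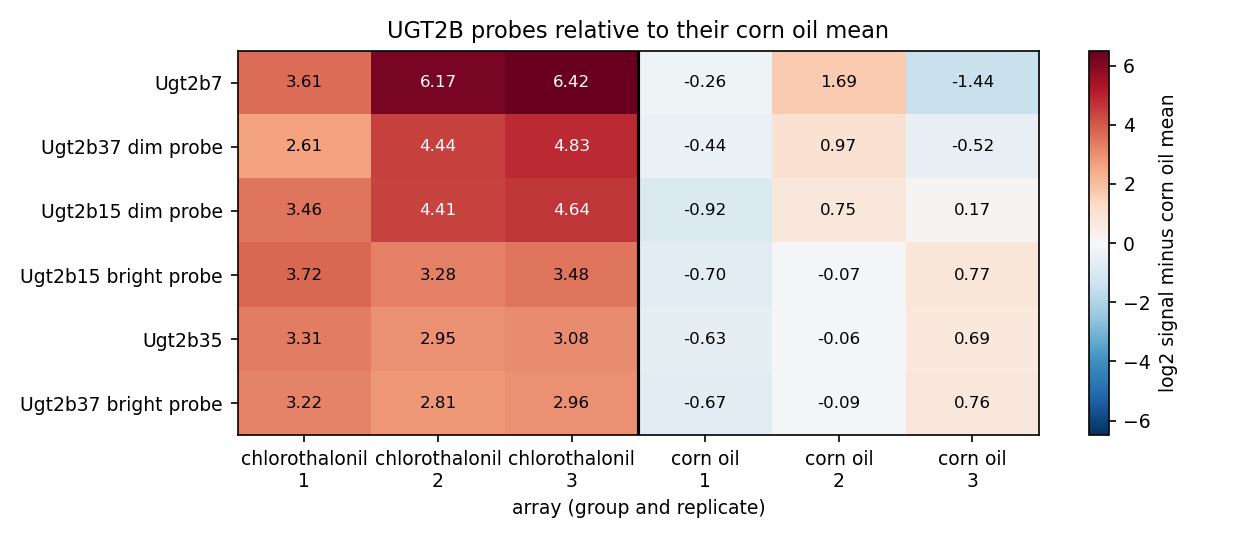
Log2 signal of each UGT2B probe on each array minus the mean of the probe over the corn oil arrays, with the chlorothalonil arrays left of the line. The upper 3 probes are lowest in chlorothalonil replicate 1 among the treated arrays (2.61 to 3.61), and the lower 3 are highest there (3.22 to 3.72). The corn oil values of the dimmer Ugt2b37 probe, well above background on 1 of 3 arrays, carry no order.

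Across 11918 named features with values on all arrays, the profile nearest to Ugt2b35 and to the brighter Ugt2b37 probe was that of Gstp1, a glutathione S-transferase, at root mean square log2 distances of 0.279 and 0.284 over the 6 arrays. Gstp1 was also nearest to the brighter Ugt2b15 probe, at 0.496, and Pir, an iron-binding nuclear protein, came second for all 3. The third was Dusp13b, a dual-specificity phosphatase, for Ugt2b35 and Ugt2b37, and Trim54 for Ugt2b15. For Ugt2b7 the rule named Or10d5j, the quinone reductase Nqo1 and Csmd1, of which Nqo1 was at 1.58. No distance is given for Trim54, Or10d5j and Csmd1, which were well above background on 0 of 3 corn oil arrays, nor for Dusp13b, which was so on 2 of 3, and their place in the order is uncertain. A probe with no gene symbol followed Ugt2b7 at 0.0489, with scaled signals of 9.97, 58.3 and 74.99 under chlorothalonil against 0.690, 2.75 and 0.293 under corn oil. These distances include the difference between the groups and describe 6 arrays.

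In the annotation the members are neighbours on chromosome 14, in the order Ugt2b15, Ugt2b37, Ugt2b35 and Ugt2b7, with 1 other gene among them, which has no named probe. The run from the first to the last UGT2 gene holds 24 genes, 9 of them with a probe: the 4 members and Ugt2a1, Ugt2a3, Ugt2b, Ugt2b1 and Ugt2b10. None of these 5 other genes passed the filter on dim probes, so none had a level in either group. Ugt2b1, a UGT2B enzyme of rat liver, had processed signals of 4.13, 6.89 and 4.35 with chlorothalonil, against 4.32, 4.78 and 7.91 with corn oil, well above background on no array. Ugt2b10 had processed signals of 13.39, 13.53 and 12.99 with chlorothalonil, against 7.95, 6.66 and 7.54 with corn oil, also well above background on none. Of 2 Ugt2b probes, 1 was well above background in corn oil replicate 2 alone, at a processed signal of 37.0. Of 2 Ugt2a3 probes, 1 was so in chlorothalonil replicate 3 alone, at a processed signal of 159.1. Ugt2b, which holds the run of letters shared by the members, was thus among the genes without a level.

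On the flanks, Sult1b1, a sulfotransferase, had scaled signals of 5.41, 11.9 and 14.4 with chlorothalonil, against 12.4, 21.4 and 5.80 with corn oil. The groups overlapped, and the log2 difference was -0.24 ± 0.70 (SE; limma adjusted p = 0.859). Ythdc1, a reader of methylated RNA on the other flank, differed by -0.03 ± 0.05 (SE; limma adjusted p = 0.868). The other flanking genes with a probe, Sult1e1 and Sult1d1, were not well above background in either group. Thus 0 of the 2 flanking genes tested passed, where 3.12% of all features tested did (909 of 29115).

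**Figure D3:**
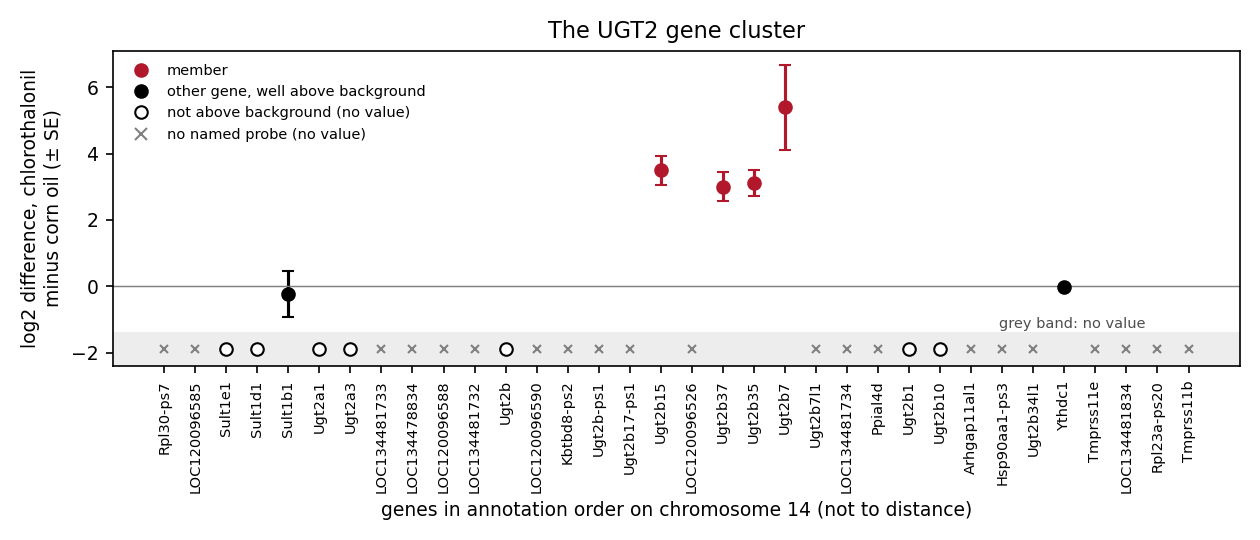
Log2 difference, chlorothalonil minus corn oil, for genes of the UGT2 cluster and 5 neighbours on each side, in annotation order on chromosome 14. Bars are the standard error from the variances of both groups, symbols in the grey band have no value, and open circles there are genes not well above background on all 3 arrays of either group. The 4 members stand between 3.00 and 5.40, Sult1b1 at -0.24 and Ythdc1 at -0.03.

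The UGT genes outside the UGT2 family were tested, since the choice of the members did not rest on them. Their list, like the gene lists below, was chosen with earlier results of these data known. Of 14 listed, 5 were on the array, and 3 of these 5 were higher with chlorothalonil in limma at an adjusted p under 0.05, against 1.3% of all features called higher. None was lower, against 1.82% of all features, and the median log2 difference of the 5 was 1.33, against 0.0035 over all features. The 3 are UGT1A genes, which share later exons, so their probes are not independent readings.

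Ugt1a6, whose enzyme prefers small planar phenols, read 163.3, 138.3 and 178.4 with chlorothalonil, against 55.9, 61.0 and 56.0 with corn oil on its brightest probe. Its log2 difference was 1.47 ± 0.11 (SE; limma adjusted p = 0.00667), and its 3 probes lay between 1.47 and 2.33. Ugt1a2 read 46.8, 39.7 and 45.6 with chlorothalonil, against 14.99, 15.74 and 14.003 with corn oil, a log2 difference of 1.56 ± 0.09 (SE; limma adjusted p = 0.0051). Both stood apart without overlap, and both differences are smaller than those of the 4 UGT2B genes. Ugt1a1, the bilirubin-conjugating enzyme, read 6.66, 6.18 and 7.92 with chlorothalonil, against 2.41, 3.05 and 2.78 with corn oil, a log2 difference of 1.33 ± 0.13 (SE; limma adjusted p = 0.0122). Its call was lost without chlorothalonil replicate 1 (limma adjusted p = 0.0567) or without corn oil replicate 3 (0.051). Ugt1a9 differed by 0.26 ± 0.36 (SE; limma adjusted p = 0.746) and Ugt8, which makes galactolipids of myelin, by 0.15 ± 0.16 (SE; limma adjusted p = 0.649), and neither passed. Whether the UGT2B genes differ more than the UGT1A genes was not tested.

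Of 21 listed genes that make, carry or use UDP-glucuronate, 18 were tested, 2 were higher (all features 1.3%) and 0 lower (1.82%), and the median log2 difference was 0.09. Entpd5, a nucleotidase of the endoplasmic reticulum, read 45.3, 41.9 and 46.8 with chlorothalonil, against 22.1, 24.9 and 21.9 with corn oil, a log2 difference of 0.96 ± 0.08 (SE; limma adjusted p = 0.0094). Ugp2, which makes UDP-glucose, read 19.2, 16.2 and 18.3 with chlorothalonil, against 11.5, 11.9 and 10.5 with corn oil, a log2 difference of 0.66 ± 0.09 (SE; limma adjusted p = 0.0273). Ugdh, which oxidises UDP-glucose to UDP-glucuronate, read 9.34, 8.35 and 8.37 with chlorothalonil, against 6.07, 7.20 and 7.30 with corn oil. It did not overlap between the groups but did not pass, at 0.34 ± 0.10 (SE; limma adjusted p = 0.142). Slc35d1, a carrier of UDP-glucuronate into the endoplasmic reticulum, differed by 0.30 ± 0.07 (SE; limma adjusted p = 0.101) on its brightest probe. Its 3 probes lay between -0.02 and 0.30. The Entpd5 call was lost without chlorothalonil replicate 1 (limma adjusted p = 0.0536), and the Ugp2 call without any 1 of the 6 arrays.

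Of 12 listed genes that hydrolyse glucuronides or break down glucuronate, all 12 were tested, 1 was higher (all features 1.3%) and 0 lower (1.82%), with a median log2 difference of 0.12. Cryl1, a dehydrogenase of the glucuronate pathway, read 220.7, 160.5 and 153.6 with chlorothalonil, against 101.5, 95.6 and 86.9 with corn oil, a log2 difference of 0.90 ± 0.16 (SE; limma adjusted p = 0.0458). Its call was lost without any 1 of the 6 arrays. Gusb, the lysosomal glucuronidase that splits glucuronides, read 1.17, 1.18 and 1.18 with chlorothalonil, against 1.14, 1.15 and 1.18 with corn oil, a log2 difference of 0.03 ± 0.06 (SE; limma adjusted p = 0.836).

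Export pumps that carry glucuronides were higher in part. Of 9 listed, 8 were tested, 4 were higher (all features 1.3%) and 0 lower (1.82%), and the median log2 difference was 0.36. Abcc2, an apical pump of the proximal tubule, read 24.2, 14.1 and 15.4 with chlorothalonil, against 3.90, 4.02 and 2.73 with corn oil, a log2 difference of 2.31 ± 0.25 (SE; limma adjusted p = 0.0144). Abcc4, likewise an apical pump there, read 24.5, 19.8 and 20.3 with chlorothalonil, against 4.81, 4.82 and 5.13 with corn oil, a log2 difference of 2.13 ± 0.10 (SE; limma adjusted p = 0.00297). Abcc3, a basolateral pump with a preference for glucuronides, read 1.28, 1.05 and 1.12 with chlorothalonil, against 0.237, 0.235 and 0.262 with corn oil, a log2 difference of 2.23 ± 0.10 (SE; limma adjusted p = 0.00224). Each of the 3 stood apart between the groups by over 2 log2 units at its mean. Abcc1 differed by 0.62 ± 0.06 (SE; limma adjusted p = 0.0108), while Abcg2, an apical pump for sulfates and other conjugates, was at -0.26 ± 0.07 (SE; limma adjusted p = 0.113) and did not pass. The Abcc2 call was lost without chlorothalonil replicate 2 (limma adjusted p = 0.0543), chlorothalonil replicate 3 (0.061) or corn oil replicate 3 (0.0509), and the Abcc1 call without chlorothalonil replicate 1 (0.0567) or 2 (0.0563). Both calls were also lost with no filter on dim probes (limma adjusted p = 0.0522 for Abcc2 and 0.051 for Abcc1).

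Sulfation competes with glucuronidation for many of the same substrates. Of 18 listed sulfotransferase and sulfate supply genes, 11 were tested, 1 was higher (all features 1.3%) and 0 lower (1.82%), and the median log2 difference was -0.002. Sult1c3 read 0.624, 0.887 and 0.565 with chlorothalonil, against 0.314, 0.170 and 0.242 with corn oil, a log2 difference of 1.53 ± 0.27 (SE; limma adjusted p = 0.0479). Sult1c2, the related gene, stood at -0.79 ± 0.32 (SE; limma adjusted p = 0.249) and did not pass.

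Of 27 listed factors known to act on UGT genes, 26 were tested, 2 were higher (all features 1.3%) and 0 lower (1.82%), and the median log2 difference was 0.05. Bach1, a repressor at antioxidant response elements, read 0.424, 0.394 and 0.453 with chlorothalonil, against 0.275, 0.262 and 0.274 with corn oil, a log2 difference of 0.65 ± 0.08 (SE; limma adjusted p = 0.0169). Keap1, which holds the factor NRF2 for degradation, read 1.68, 1.62 and 1.55 with chlorothalonil, against 1.24, 1.21 and 1.19 with corn oil, a log2 difference of 0.41 ± 0.06 (SE; limma adjusted p = 0.0345). The transcript of NRF2 itself, Nfe2l2, was at -0.23 ± 0.08 (SE; limma adjusted p = 0.206). The pregnane X receptor Nr1i2 was at 0.25 ± 0.07 (SE; limma adjusted p = 0.146) and the constitutive androstane receptor Nr1i3 at 0.40 ± 0.13 (SE; limma adjusted p = 0.174), and none of these 3 passed. Nr1i3 was well above background on 2 of 3 corn oil arrays, so the size of its difference is uncertain. The calls of Sult1c3, Bach1 and Keap1 were lost without any 1 of the 6 arrays.

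**Figure D4:**
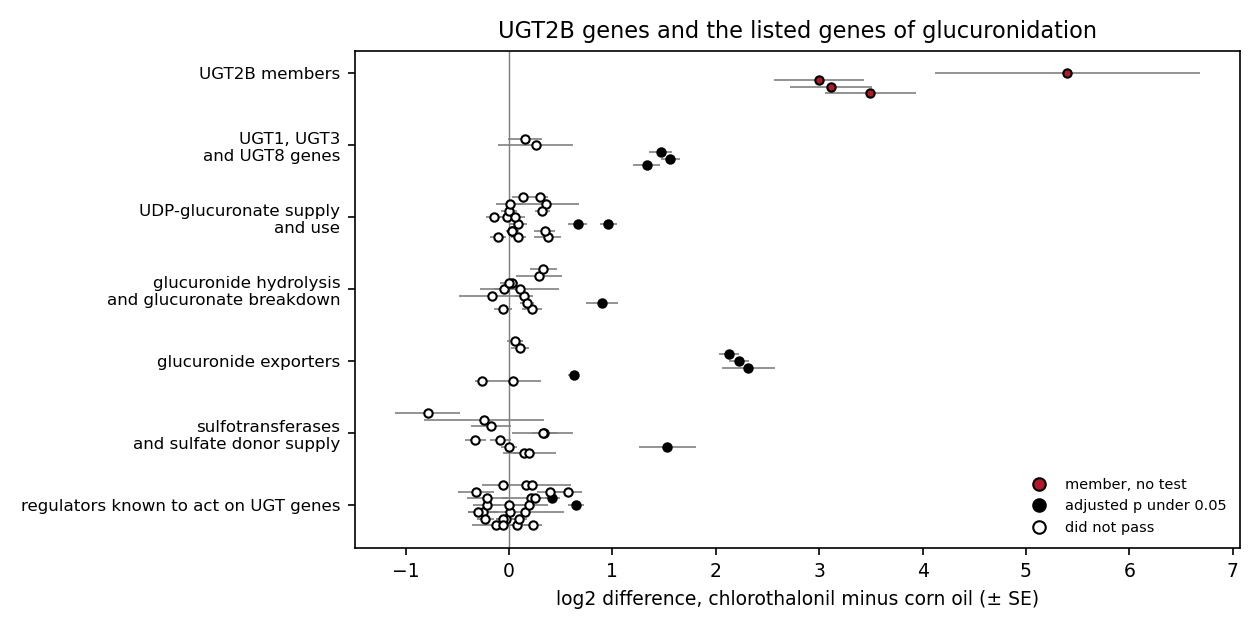
Log2 difference, chlorothalonil minus corn oil, of the 4 UGT2B genes and of the tested genes of the 6 glucuronidation and sulfation lists. Points are 1 probe per gene, bars are the standard error (from the group variances for the UGT2B genes, from limma for the rest), and filled black points passed a limma adjusted p of 0.05. The UGT2B genes lie at 3.00 and above, and the largest listed difference is that of Abcc2 at 2.31.

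The tissue label was checked against marker genes. All 18 proximal tubule markers were measured, their summed scaled signals were 2391, 2604 and 2744 with chlorothalonil, against 2393, 2273 and 2274 with corn oil, and 0 of the 18 passed the test. Within corn oil the widest spreads of these markers were those of Slc7a13 (10.2-fold) and Slc22a7 (6.26-fold), both lowest in replicate 1. The next was 1.40-fold, for Slc22a12. The sum does not show this spread, and its part in the UGT2B values was not tested. The gene that heads the list, the endocytic receptor Lrp2, was at -0.03 ± 0.06 (SE; limma adjusted p = 0.815). No member of the other 11 marker lists passed either. The markers that head their lists there, or the first one measured, were Alb, Vil1, Cyp17a1, Slc12a1, Aqp2, Nphs1, Pecam1, Cd68, Col1a1, Hba-a1 and Adipoq, with log2 differences between -0.65 and 1.69. Red blood cell markers moved with treatment at an unadjusted p under 0.05 in 4 of 4 genes tested, against 19.7% of all features, at a median log2 difference of 0.26, with summed signals of 555.8, 602.4 and 580.6 with chlorothalonil, against 482.8, 497.2 and 475.5 with corn oil. Their part in the results was not tested.

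UGT2B enzymes are abundant in liver, and transcripts of the hepatocyte list were present on every array. Summed hepatocyte markers were 15.8, 23.5 and 14.4 with chlorothalonil, against 13.3, 22.2 and 16.5 with corn oil, and 0 of 13 tested passed, with a median log2 difference of 0.26. Apoc3 was the largest part of each sum, at 6.57, 8.23 and 6.81 with chlorothalonil and 8.10, 8.45 and 6.56 with corn oil. The sums do not show the size of the spread of Alb and Ttr. Alb read 1.91, 4.99 and 1.32 with chlorothalonil, against 0.0332, 3.996 and 2.80 with corn oil. Ttr read 1.21, 2.93 and 0.828 with chlorothalonil, against 0.0201, 2.22 and 1.89 with corn oil. Corn oil replicate 1 stood apart with very little Alb and with Ttr not well above background, and the groups otherwise overlapped. The hepatocyte markers Tat and Cyp7a1 were not well above background on any array, nor was Ugt2b1. The part of these transcripts in the UGT2B values was not tested.

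**Figure D5:**
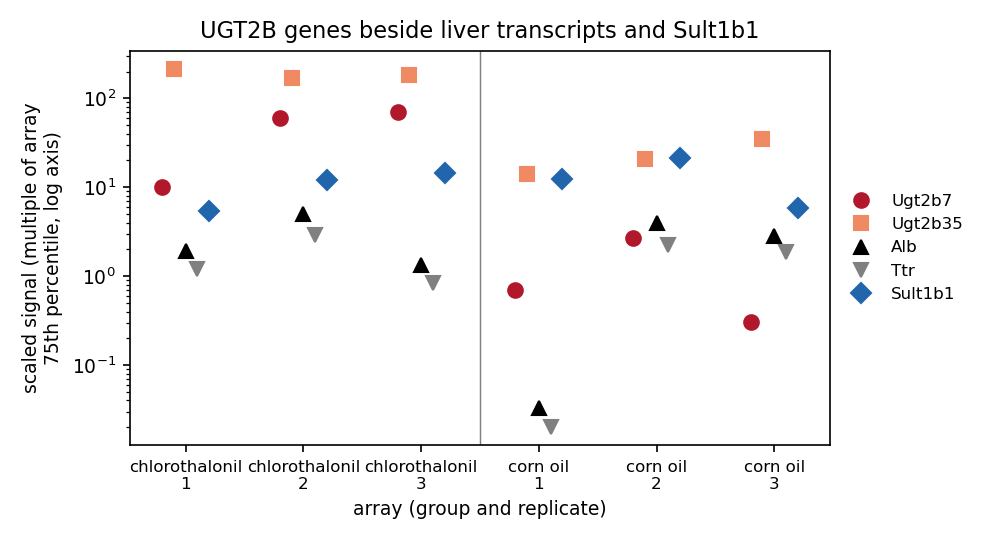
Scaled signal (multiple of the 75th percentile of the array, log axis) of Ugt2b7, Ugt2b35, the liver transcripts Alb and Ttr, and Sult1b1 on each of the 6 arrays, chlorothalonil at left. Sult1b1 lies on the flank of the UGT2 cluster and is not next to the members. Alb and Ttr overlap between the groups and are lowest in corn oil replicate 1 (0.0332 and 0.0201), where Ttr was not well above background. Ugt2b7 and Ugt2b35 are higher on every chlorothalonil array than on any corn oil array.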

How the data were processed

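Agilent Feature Extraction 10.7, per the submitters' processing notes, turned each scan into spot intensity values on a linear scale. The processed signal intensity used here had its background subtracted, per the file headers, and arrays were not scaled to each other. In the value table that the authors deposited, each entry is a ratio of the processed signal to 1 constant per array. This was found by dividing the columns, as no source used here states the scaling. The table had column medians of 0.105, 0.105 and 0.106 for chlorothalonil and 0.107, 0.109 and 0.112 for corn oil. It was used as an alternative.

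The processed signal was divided by each array's 75th percentile over probes other than controls, and log2 was taken. Outlier spots were left out. A probe was kept if well above background, per the deposited flags, on all 3 arrays of at least 1 group, which left 39862 probes. Probes were named through their accessions in a RefSeq table of GRCr8 (28206 of 61537 matched 1 gene). The array headers name an older build, so no array coordinates are used. The brightest kept probe stood for a gene, giving 29115 features, 11926 of them with a symbol. The test was limma's (version 3.58.1, lmFit and eBayes, no covariate, under R 4.3.3), with Benjamini-Hochberg adjustment over all features and a threshold of 0.05. The fit was tested on simulated data.

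The 4 UGT2B genes, the gene lists, the marker lists and the alternatives were chosen with earlier results of these data known. Genes named are all member probes, other UGT genes past the threshold, up to 4 genes past it per list, flanking genes past it, the 3 nearest profiles per member, and the first measured marker per marker list. Other genes were named after their values were seen.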

Additional observations from a re-analysis of the deposited data

How the results depend on the processing

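The 4 UGT2B differences were above 0 in all 15 alternatives run for each. The members were chosen on this contrast, and several alternatives leave their values unchanged, so nothing is read from that count. With 1 array left out the differences lay between 4.68 and 6.29 (log2) for Ugt2b7 and between 3.15 and 3.88 for Ugt2b15. For Ugt2b35 they lay between 2.80 and 3.46, and for Ugt2b37 between 2.66 and 3.38. The mean of its probes gave 3.48 for Ugt2b37. That value includes the dimmer probe, most of whose corn oil values are not well above background, and is not read as a size. Of all features, 909 were called, against 1373 with normexp background correction (run on the median spot signal) and 172 with no filter on dim probes. Scaling to the array median called 803, 435 higher and 368 lower, against 378 higher and 531 lower. With 1 array left out the number lay between 127 and 402: 127, 141 and 183 without chlorothalonil replicates 1, 2 and 3, and 402, 297 and 225 without corn oil replicates 1, 2 and 3. With the replicate number as a block limma called 0 features, 5271 having an unadjusted p under 0.05, and 0 genes of the UGT1, UGT3 and UGT8, donor supply, hydrolysis, exporter, sulfotransferase and regulator lists. Same-numbered arrays deviated from their group means with correlations of 0.0948, 0.0177 and 0.0511, so the numbers were not taken as pairing. Without the filter the calls were 1 for supply, 0 for hydrolysis, 2 for exporters, 0 for sulfotransferases and 0 for regulators. Quantile normalization called 0 for hydrolysis and 0 for sulfotransferases, and the mean of probes 0 for sulfotransferases and 1 for regulators. With 1 array left out the lists gave 2 to 3 (UGT1, UGT3 and UGT8), 0 to 1 (supply), 0 to 0 (hydrolysis, sulfotransferases, regulators and other UGT2 genes) and 2 to 4 (exporters). Fewer arrays enter those fits; the cause of the other changes was not tested. The slide could not be fitted as a block, since each slide held 1 group. Ugt2b37's dimmer probe and the other UGT2 genes lie near background, where the arrays give no order.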

Other observations

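Within the groups, Ugt2b7 varied alongside a gene that flanks the UGT2 cluster and did not pass the test between the groups. After each group's own mean was removed, Ugt2b7 stood at -1.79, 0.77 and 1.02 on the log2 scale in chlorothalonil replicates 1 to 3, and at -0.26, 1.69 and -1.44 in corn oil replicates 1 to 3. That gene, the sulfotransferase Sult1b1, stood at -0.85, 0.29 and 0.56 with chlorothalonil and at 0.10, 0.89 and -0.99 with corn oil. Of 11918 named features, Sult1b1 was the 2nd nearest to Ugt2b7 in these deviations, at a root mean square distance of 0.618, after Ccdc152 at 0.547. For the brighter Ugt2b15 probe, Ugt2b35 and the brighter Ugt2b37 probe its rank was 11839, 11834 and 11840. The distance depends on the size of the deviations as well as on their order. A gene with large deviations, such as Sult1b1 with an SD of 0.764, ranks low for members with small ones. The comparison was chosen after the data were seen, only 4 of the 6 deviations are free to vary, and no test was made of it.

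The other 3 UGT2B genes had different neighbours within the groups. Ly49si1 was nearest to each of them, at 0.0964 for Ugt2b15, 0.0800 for Ugt2b35 and 0.0983 for Ugt2b37. The glutathione S-transferase Gstm7 was among the nearest 3 for each, at 0.103, 0.0880 and 0.0993 in the same order. In Ugt2b35 the deviations were 0.20, -0.16 and -0.04 with chlorothalonil and -0.63, -0.06 and 0.69 with corn oil, the corn oil arrays being the more spread.

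Intestinal markers, whose tissue also expresses UGT2B enzymes, summed to 13.6, 23.1 and 37.4 with chlorothalonil, against 15.6, 55.9 and 60.0 with corn oil, and 0 of 6 tested passed. Most of each sum was Tff3, at 9.15, 18.1 and 32.9 with chlorothalonil and 10.2, 50.8 and 54.9 with corn oil. Adrenal markers summed to 30.8, 31.0 and 34.6 with chlorothalonil, against 29.5, 29.9 and 26.8 with corn oil, and 5 of the 10 on the array, among them Star and Cyp11b1, were not well above background on any array. Fdx1 made up most of each adrenal sum, at 29.5, 29.8 and 33.2 with chlorothalonil and 28.7, 28.6 and 25.6 with corn oil.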
